A study of Gallus gallus with 5 samples.

Results

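Cadherins, protocadherins and catenins were followed through chick otic placode formation as a group of 43 loci out of the 18365 with read counts. A locus was included when its gene symbol began with CDH, PCDH or CTNN. The group held 22 cadherin loci, 12 protocadherin loci and 9 loci of catenins or catenin-related proteins. The chick genes *Cdh1* and *Cdh3* (E- and P-cadherin) share 1 merged locus in the files, so that their reads cannot be told apart, and it is called *Cdh1/Cdh3* here. A further locus carries the symbol of a cadherin gene cluster in joined form and lies outside the rule.

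Classical cadherins are transmembrane proteins that bind their own kind on neighbouring cells through calcium, and so hold epithelia together and let cell groups sort apart. Inside the cell, β-catenin links the cadherin tail to α-catenin and actin, while p120-catenin steadies the cadherin at the membrane. β-catenin is also the transcriptional effector of canonical Wnt signalling, a pathway active during otic placode formation. E-cadherin is typical of early ectoderm and N-cadherin (*Cdh2*) of neural tissue, mesoderm and several ectodermal placodes.

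A total of 5 conditions of Bovans Brown embryos were compared, each as 1 RNA library. The otic series ran through posterior pre-placodal ectoderm (PPR) at 0ss (HH6 in the labels), otic-epibranchial progenitors (OEPs) at 5-6ss, the thickened placode at 8-9ss and the invaginating placode at 11-12ss. The whole embryo at 3ss was the reference tissue. Otic tissue was a pool of dissected pieces from which mesoderm and endoderm had been peeled after dispase, and none of the embryos was manipulated. In such bulk samples, fewer cells of a type and less RNA per cell cannot be told apart.

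Total counts lay between 26858887 (5-6ss) and 136916870 (0ss). No condition had a replicate, so no p-value was computed. Each fold change carries its 95% exact binomial interval, which covers counting error only and is therefore narrower than the real error. The tissue labels were checked against 7 otic and pre-placodal markers, whose summed RPKM (read density scaled by transcript length and library depth) was 213 at 0ss, 711 at 5-6ss, 914 at 8-9ss and 1062 at 11-12ss, against 124 in the whole embryo. Of the paraxial mesoderm list 4 of 7 markers were matched. They summed to between 0.919 and 4.83 RPKM in the 4 otic libraries, against 244 in the whole embryo, with *Msgn1* at 0 counts at 8-9ss and 11-12ss and *Myf5* at 0 counts at 5-6ss.

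Calls required a difference of more than 1.5-fold in normalized counts, and in the higher of both libraries an RPKM above 4 together with more than 300 normalized counts. Of the 43 loci, 20 passed both expression levels in at least 1 library and 13 passed them in every library. The number past both levels was 18 at 0ss, 15 at 5-6ss, 13 at 8-9ss, 14 at 11-12ss and 16 in the whole embryo. In the 7 comparisons 14 loci were called at least once, a count given only to say which loci are named, without a share over all loci. With *Cdh1/Cdh3*, *Cdh2*, *Ctnna1*, *Ctnnb1* and *Ctnnd1*, which are described whatever their values, 17 loci are described in full below. Some further members are named without a call.

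The type I cadherins of the set were led by *Cdh1/Cdh3*, which had an RPKM of 799 at 0ss, 1100 at 5-6ss, 908 at 8-9ss and 709 at 11-12ss, against 519 in the whole embryo. Leaving aside 1 very short locus, it had the highest RPKM of the 43 loci in each library, and it peaked in OEPs. *Cdh2* had an RPKM of 20.9 at 0ss, 6.52 at 5-6ss, 19.0 at 8-9ss and 41.4 at 11-12ss, against 135 in the whole embryo. It was thus lowest when *Cdh1/Cdh3* was highest, and at each otic stage it stood below the whole embryo. The ratio of *Cdh1/Cdh3* to *Cdh2* RPKM was 38.2 (37.4 to 39.0) at 0ss, 169 (155 to 185) at 5-6ss, 47.9 (46.0 to 49.9) at 8-9ss and 17.1 (16.6 to 17.7) at 11-12ss, against 3.85 (3.79 to 3.92) in the whole embryo. Of the summed RPKM of all 22 cadherin loci, *Cdh1/Cdh3* made up 90.2% at 0ss, 97.6% at 5-6ss, 96.4% at 8-9ss and 91.3% at 11-12ss, against 72.0% in the whole embryo. The share of *Cdh2* was 2.36% at 0ss, 0.578% at 5-6ss, 2.01% at 8-9ss and 5.33% at 11-12ss, against 18.7% in the whole embryo.

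**Figure D1:**
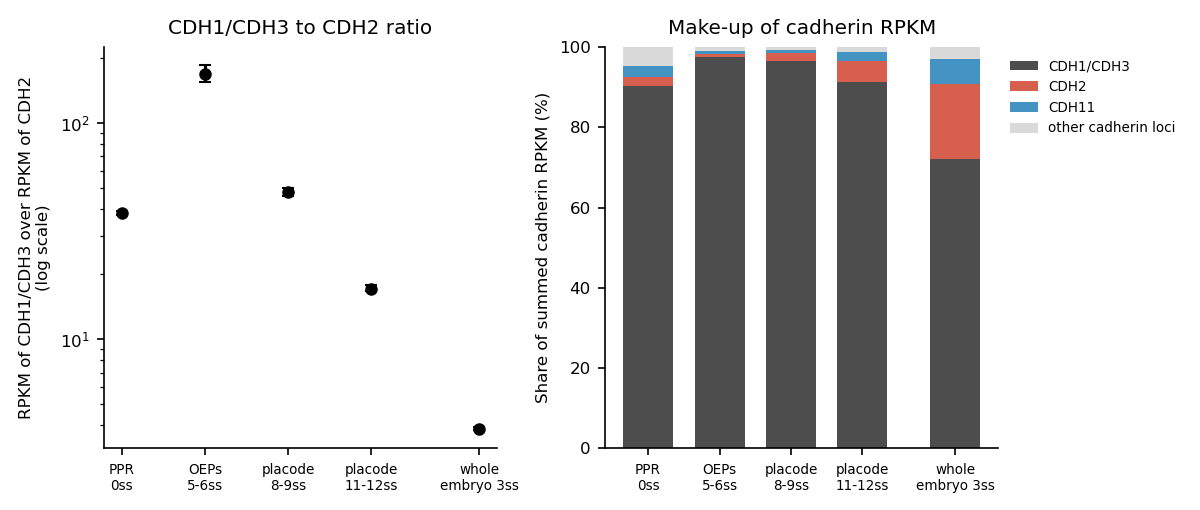
Left, RPKM of *Cdh1/Cdh3* over that of *Cdh2* in each library on a log axis, with 95% counting intervals as bars (1 library per condition). Right, shares of the summed RPKM of 22 cadherin loci in percent. The ratio peaks at 169 in OEPs at 5-6ss and is lowest, at 3.85, in the whole embryo.

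Type II cadherins, a branch common in neural and mesenchymal tissue, were at lower levels. *Cdh11*, a cadherin of mesenchyme, had an RPKM of 23.9 at 0ss, 10.5 at 5-6ss, 8.85 at 8-9ss and 16.2 at 11-12ss, against 45.0 in the whole embryo. It too was lower at 5-6ss than at 0ss, with its lowest value at 8-9ss. *Cdh7*, known in chick from neural crest, had an RPKM of 7.82 at 0ss and between 1.32 and 1.49 at the later otic stages, against 2.50 in the whole embryo. *Cdh8*, a cadherin of the nervous system, had an RPKM of 4.04 at 0ss, just past the expression level, then 0.392 at 5-6ss, 0.149 at 8-9ss and 0.210 at 11-12ss, against 0.582 in the whole embryo. Both were therefore above the expression levels at 0ss alone among these libraries.

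*Cdh20*, another type II cadherin, was found above the expression levels in the whole embryo alone, with an RPKM of 0.409 at 0ss, 0.0761 at 5-6ss, 0.103 at 8-9ss and 0.399 at 11-12ss, against 7.09. *Cdh13* (T-cadherin) is anchored in the membrane by a lipid and has no tail for catenins. Its RPKM was 19.8 at 0ss, 1.58 at 5-6ss, 0.0983 at 8-9ss and 0.411 at 11-12ss, against 3.09 in the whole embryo. From 5-6ss on it rested on 82, 7 and 29 counts, against 6428 at 0ss.

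Among protocadherins, *Pcdh1*, which takes part in epithelial adhesion in mammalian airways, had an RPKM of 43.9 at 0ss, 55.5 at 5-6ss, 50.2 at 8-9ss and 32.8 at 11-12ss, against 23.5 in the whole embryo. *Pcdh19*, a δ2-protocadherin that acts together with N-cadherin in zebrafish, had an RPKM of 39.2 at 0ss, 19.2 at 5-6ss, 24.7 at 8-9ss and 37.0 at 11-12ss, against 12.9 in the whole embryo. *Pcdh1* was thus highest where *Pcdh19* was lowest in the otic series. The 2 loci together held most of the summed RPKM of 11 protocadherin loci (without the very short one) at each otic stage. These sums leave out a protocadherin γ locus outside the symbol rule, which is described at the end. That locus had 23.9 RPKM at 0ss, 39.0 at 5-6ss, 48.3 at 8-9ss and 66.4 at 11-12ss, against 32.3 in the whole embryo. The shares therefore hold for the described set only. *Pcdh1* took 45.1% at 0ss, 63.3% at 5-6ss, 58.4% at 8-9ss and 38.4% at 11-12ss, against 29.7% in the whole embryo. The share of *Pcdh19* was 40.3% at 0ss, 21.9% at 5-6ss, 28.7% at 8-9ss and 43.4% at 11-12ss, against 16.3% in the whole embryo.

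*Pcdh8*, known in mouse and frog as a paraxial mesoderm protocadherin, had an RPKM of 4.51 at 0ss, 1.28 at 5-6ss, 0.981 at 8-9ss and 1.57 at 11-12ss, against 34.0 in the whole embryo. *Pcdh17*, a δ2-protocadherin of the nervous system, had an RPKM of 1.68 at 0ss, 4.20 at 5-6ss, 3.78 at 8-9ss and 3.35 at 11-12ss, against 0.908 in the whole embryo. Its level at 5-6ss was just past the RPKM minimum and the other 4 libraries were under it. *Pcdh18*, of the same δ2 branch, varied least of the named protocadherins, with an RPKM of 5.98 at 0ss, 4.54 at 5-6ss, 3.23 at 8-9ss and 5.41 at 11-12ss, against 4.41 in the whole embryo.

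The 3 core catenins of adherens junctions were abundant and varied little. *Ctnnb1* (β-catenin) had an RPKM of 335 at 0ss, 384 at 5-6ss, 421 at 8-9ss and 450 at 11-12ss, against 349 in the whole embryo. *Ctnna1* (αE-catenin) had an RPKM of 132 at 0ss, 163 at 5-6ss, 155 at 8-9ss and 136 at 11-12ss, against 144 in the whole embryo. *Ctnnd1* (p120-catenin) had an RPKM of 103 at 0ss, 85.0 at 5-6ss, 84.9 at 8-9ss and 90.5 at 11-12ss, against 78.5 in the whole embryo. The highest and lowest library differed 1.34-fold for *Ctnnb1*, 1.24-fold for *Ctnna1* and 1.31-fold for *Ctnnd1* in RPKM. The range was 2.12-fold for *Cdh1/Cdh3* and 20.7-fold for *Cdh2*. That of *Cdh13* was 202-fold, but its lowest value rested on 7 counts. None of these 3 core catenins was called in any of the 7 comparisons.

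*Ctnnd2*, a p120 relative best known from neurons, had an RPKM of 14.4 at 0ss, 10.4 at 5-6ss, 10.4 at 8-9ss and 11.9 at 11-12ss, against 16.4 in the whole embryo. *Ctnnal1* (α-catulin), an α-catenin relative, had an RPKM of 15.6 at 0ss, 13.0 at 5-6ss, 11.2 at 8-9ss and 14.2 at 11-12ss, against 13.9 in the whole embryo. *Ctnna2* (αN-catenin), *Ctnnbl1* and *Ctnnbip1* passed the expression levels in every library without being called. For *Ctnna2* the units parted at 5-6ss over 0ss, where the ratio of normalized counts was 0.850 (0.794 to 0.910) and that of RPKM 1.46.

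**Figure D2:**
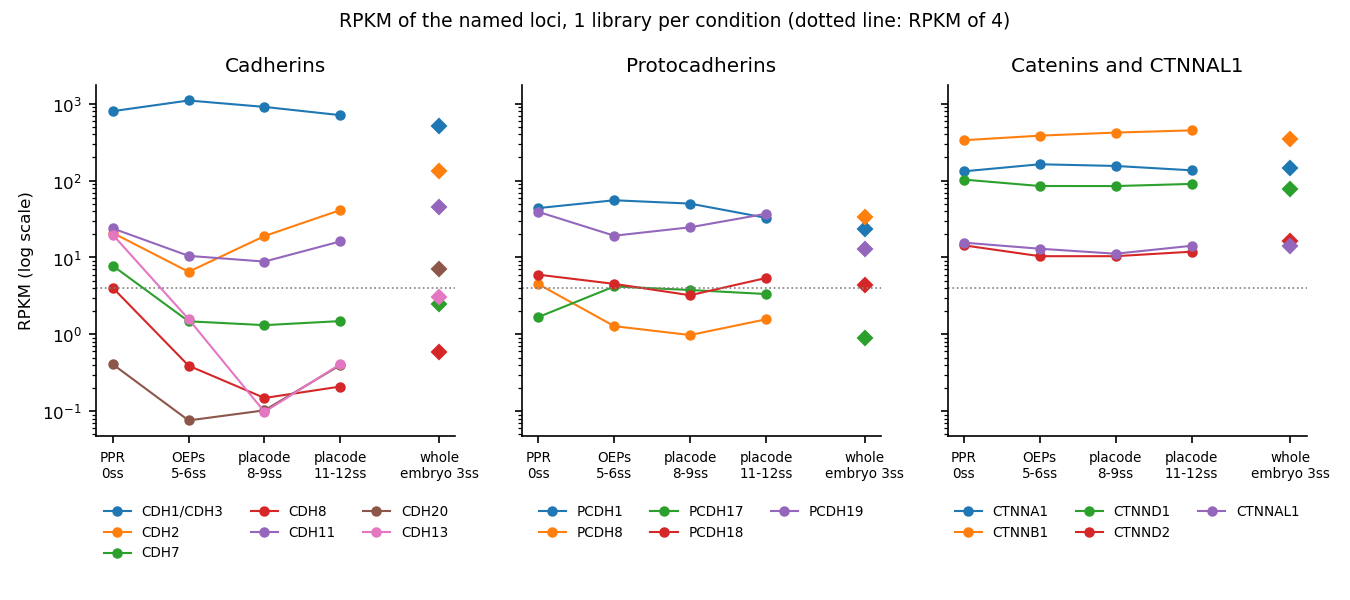
RPKM of the 17 named loci on a log axis, by class, at PPR 0ss, OEPs 5-6ss, placode 8-9ss and placode 11-12ss (joined circles) and in the whole embryo at 3ss (diamonds), 1 library each. The dotted line marks an RPKM of 4. *Cdh2* dips to 6.52 at 5-6ss while the catenin lines shown stay nearly level. *Ctnna2* is not plotted.

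The remaining 23 loci passed both levels in no library. They included 8 type II cadherins, 6 of the 7 cadherins of other types and 7 protocadherins. Without the very short locus, their RPKM lay between 0 and 3.65, and 14 of 22 stayed under 1 in each library. That short locus, listed as *Pcdh12* in the RPKM file, had between 0 and 1427 RPKM on 5 to 71 counts, and its RPKM is therefore not interpreted. *Cdh5* (VE-cadherin, of blood vessels) was picked from these low loci after its values were seen. It had 45 counts at 0ss, 50 at 5-6ss, 223 at 8-9ss and 397 at 11-12ss, against 116 in the whole embryo. Its RPKM was 0.0852 at 0ss, 0.612 at 5-6ss, 1.63 at 8-9ss and 3.18 at 11-12ss, against 0.696 in the whole embryo. It was higher at each later otic stage, yet stayed under the RPKM minimum of 4. Other low loci, such as *Pcdh7* and *Pcdha11*, also had a higher RPKM at 11-12ss than at 0ss, while some had a lower one.

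The first step compared OEPs at 5-6ss with the PPR at 0ss, the interval in which otic specification begins. Of the 22 cadherin loci *Cdh13*, *Cdh8*, *Cdh7*, *Cdh2* and *Cdh11* fell, together with *Pcdh8*, *Pcdh19*, *Ctnnd2* and *Ctnnal1*. *Cdh1/Cdh3*, the most abundant cadherin locus at both stages, rose, as did *Pcdh1* and *Pcdh17*. Of the 19 loci past the expression levels in either library, 9 were lower (47.4%), 3 were higher (15.8%) and 7 were within 1.5-fold. Over all 9253 such loci 18.9% were called lower and 18.0% higher, and the median log2 fold change was -0.30 for the cadherin and catenin loci and -0.03 for all.

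*Cdh13* fell 15.0-fold (12.1 to 18.9), on 82 counts at 5-6ss against 6428 at 0ss. *Cdh8* fell 8.60-fold (5.84 to 13.2) and *Cdh7* 5.49-fold (4.53 to 6.72). *Cdh2* fell 3.45-fold (3.15 to 3.79), on 497 counts at 5-6ss against 8959 at 0ss. These falls were far past counting error, although the 0ss library was the deepest and the 5-6ss library the smallest. *Cdh11* fell 2.62-fold (2.47 to 2.79), *Pcdh8* 2.60-fold (2.16 to 3.14) and *Pcdh19* 1.66-fold (1.57 to 1.76). The call of *Cdh8* was lost when counts were thinned to the smallest library, since its normalized count then came under 300. Among the rising loci *Pcdh17* was 2.56-fold higher (2.32 to 2.81), *Cdh1/Cdh3* 1.63-fold (1.62 to 1.65) and *Pcdh1* 1.59-fold (1.56 to 1.63). By deposited RPKM, *Cdh1/Cdh3* differed 1.38-fold and *Pcdh1* 1.26-fold, so that both calls ended in that unit. The endoderm list (3 of 5 matched) summed to 44.7 RPKM at 5-6ss against 5.85 at 0ss, of which *Ttr* alone made 38.2 at 5-6ss. *Gata6* was also higher at 5-6ss, while *Hhex* had 1.98 against 3.80. The neural crest list (3 of 6 matched) summed to 33.8 against 14.6 and the blood and vessel list (4 of 7 matched) to 10.3 against 1.14. *Lmo2* made 8.37 against 0.637 of the blood and vessel sums. *Kdr* and *Tek* were also higher at 5-6ss, and *Runx1* had 0.133 against 0.150. The part of these lists in the rise of *Cdh1/Cdh3*, *Pcdh1* and *Pcdh17* was not tested.

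The catenin calls of this step were close to the threshold. *Ctnnd2* fell 1.63-fold (1.54 to 1.73) and *Ctnnal1* 1.62-fold (1.51 to 1.75) by counts. By RPKM they were 1.39-fold and 1.20-fold lower, which ended both calls.

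Length moved with this comparison across the whole transcriptome. All expressed loci were split into 3 equal length classes (short, middle and long), with length taken as reads per unit of RPKM in the whole embryo. The long class had a median log2 fold change of -0.27, with 29.2% called lower and 7.26% higher. The short class had a median of 0.26, with 10.0% called lower and 32.2% higher. Of the 18 expressed cadherin and catenin loci with a length estimate, 13 were in the long and 5 in the middle class. Those 13 had a median of -0.30, close to the median of that class, with 6 lower and 2 higher. Relative to the median of its class, 6 of the 8 lower loci with a length class and all 3 higher ones were still past 1.5-fold. *Cdh8* had too few reads in the whole embryo for a length class. The fall of *Cdh2* was then 2.86-fold and the rise of *Pcdh1* 1.92-fold, while *Ctnnd2* and *Ctnnal1* were 1.35-fold and 1.34-fold lower and no longer called. The length comparison was chosen after seeing the data, and its part in the result was not tested. Single or paired reads, read length and instrument may also differ between libraries, and which library had which is not given. Any such difference cannot be told apart from stage here. Neural tube markers (3 of 6 matched) moved the same way, with a summed RPKM of 13.3 at 5-6ss against 139 at 0ss. Of these sums *Zic2* alone made 13.1 at 5-6ss and 136 at 0ss. *Zic1* had an RPKM of 0.136 against 2.60, and *Olig2* had 0 counts at 5-6ss against an RPKM of 0.767 at 0ss. Their part in the fall of *Cdh2*, *Cdh7*, *Cdh8* and *Cdh11* was not tested.

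**Figure D3:**
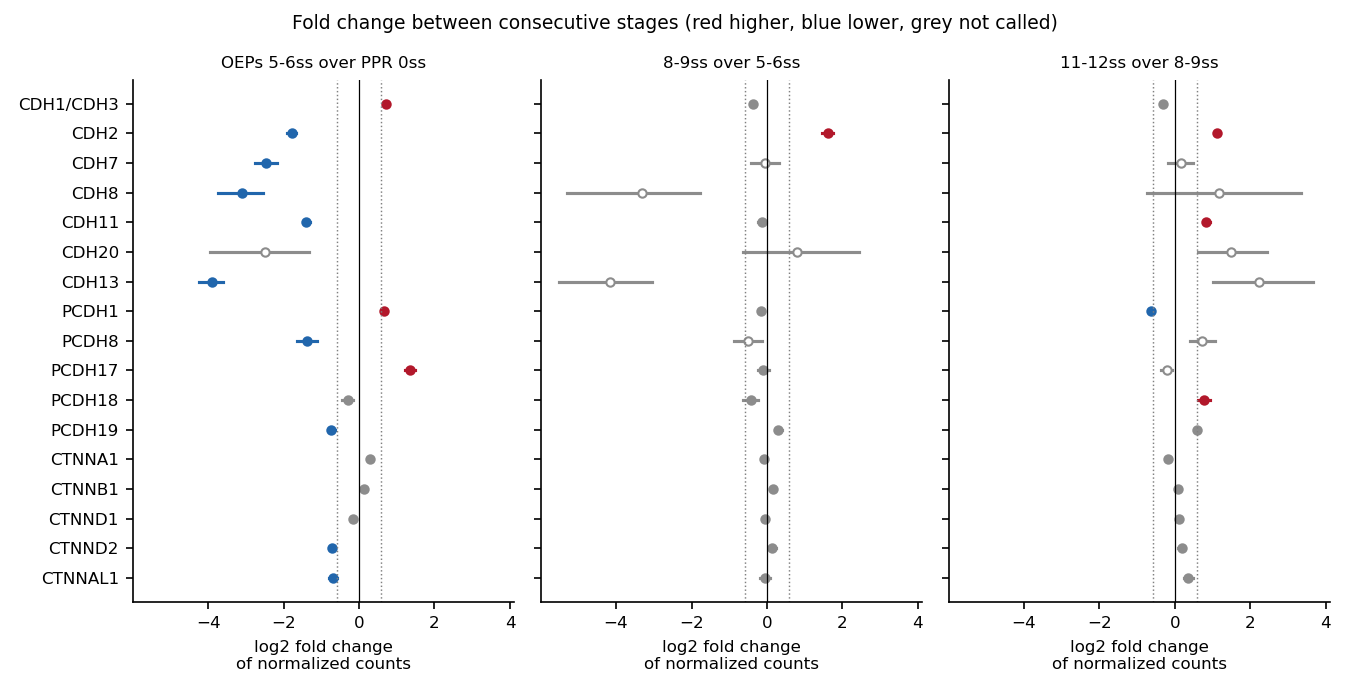
Log2 fold change of normalized counts for the 17 named loci at each step (later over earlier stage), with 95% counting intervals as lines. Red marks called higher, blue called lower and grey not called, open circles mark loci under the expression levels in both libraries, and dotted lines mark 1.5-fold. *Cdh2* lies at -1.79 in the first step, 1.61 in the second and 1.12 in the last.

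The next step, the placode at 8-9ss against OEPs at 5-6ss, showed 1 call. *Cdh2* was 3.06-fold higher (2.77 to 3.37), on 2320 counts at 8-9ss against 497 at 5-6ss. The other 14 of 15 expressed loci stayed within 1.5-fold, and 0 were lower. Over all 8281 expressed loci 3.89% were called higher and 4.99% lower, so that 1 of 15 is near the background. *Cdh1/Cdh3* was 1.29-fold lower (1.28 to 1.30), *Pcdh19* 1.23-fold higher (1.15 to 1.31) and *Cdh11* 1.10-fold lower (1.02 to 1.19), all within the threshold. *Cdh13* went on to 7 counts at 8-9ss against 82 at 5-6ss, but lay under the expression levels in both libraries. In the same step the neural tube list summed to 6.36 RPKM at 8-9ss against 13.3 at 5-6ss, the neural crest list to 18.5 against 33.8 and the endoderm list to 5.97 against 44.7. *Zic2* made 6.00 against 13.1 of the neural tube sums, *Zic1* was lower and *Olig2* had 0.304 against 0.0410. Of the neural crest list *Snai2* and *Tfap2b* were lower, while *Twist1* had 1.47 against 0.985. *Ttr* made 1.49 against 38.2 of the endoderm sums and *Gata6* was lower, while *Hhex* had 3.01 against 1.98. Sums of the paraxial mesoderm list were 3.39 against 0.919, and those of the blood and vessel list 11.9 against 10.3. *Tcf15* made 3.13 against 0.532 of the mesoderm sums and *Myf5* 0.120 against 0, while *Tbx6* had 0.137 against 0.164 and *Msgn1* 0 against 0.223. *Lmo2* made 9.65 against 8.37 of the blood and vessel sums. *Kdr* and *Tek* were also higher at 8-9ss and *Runx1* was lower. The part of these lists in the rise of *Cdh2* was not tested.

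Between the thickened placode at 8-9ss and the invaginating placode at 11-12ss, *Cdh2*, *Cdh11* and *Pcdh18* rose and *Pcdh1* fell. *Cdh2* was 2.17-fold higher (2.06 to 2.28), *Cdh11* 1.78-fold (1.67 to 1.90) and *Pcdh18* 1.71-fold (1.52 to 1.92). *Pcdh1* fell 1.54-fold (1.49 to 1.59), and its interval reached under the threshold. *Pcdh19* had a log2 fold change of 0.58 (1.42 to 1.58 as a fold) and missed the threshold by a little. It was called with size factors over all libraries, TMM, total counts, RPKM and relative to its length class, each of which gave 4 loci higher in place of 3. Of the 14 expressed loci 3 were higher and 1 was lower. Over all 8529 expressed loci 6.54% were called higher and 3.63% lower, and in the long class, which held 10 of these loci, 7.57% were higher and 1.38% lower. The median log2 fold change was 0.14 for the 14 loci, against -0.03 for all and 0.09 for the long class.

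Sums of the marker lists of other tissues are set beside these rises. The blood and vessel list summed to 1.14 RPKM at 0ss, 10.3 at 5-6ss, 11.9 at 8-9ss and 20.0 at 11-12ss, against 31.0 in the whole embryo. *Lmo2* alone made 15.8 of this sum at 11-12ss and 9.65 at 8-9ss. The neural crest list summed to 14.6 at 0ss, 33.8 at 5-6ss, 18.5 at 8-9ss and 26.4 at 11-12ss, against 64.2 in the whole embryo. Within it *Twist1* had an RPKM of 4.70 at 11-12ss against 1.47 at 8-9ss and *Tfap2b* 7.16 against 2.25, while *Snai2* had 14.5 against 14.8. Neural tube markers summed to 13.4 at 11-12ss against 6.36 at 8-9ss, and paraxial mesoderm markers to 4.83 against 3.39. *Zic2* made 11.7 against 6.00 of the neural tube sums. *Tcf15* made 4.69 against 3.13 of the mesoderm sums, while *Tbx6* had 0.119 against 0.137 and *Myf5* 0.0172 against 0.120. The part of these lists in the rise of *Cdh2*, *Cdh11* and *Pcdh18* was not tested. The endoderm list summed to 6.95 at 11-12ss against 5.97 at 8-9ss. The notochord list (2 of 4 matched) summed to between 2.54 and 3.48 in otic libraries, against 189 in the whole embryo.

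Each otic library was then set against the same whole embryo library, so that these 4 comparisons share its error. None of the otic libraries was taken at 3ss, so that differences of tissue and of stage cannot be told apart in them. *Cdh1/Cdh3*, *Pcdh1* and *Pcdh19* were called higher at all 4 stages, and *Cdh2*, *Cdh11*, *Pcdh8* and *Cdh20* were called lower at all 4. No share of all expressed loci called at all 4 stages is given, so that these repeats have no background beside them. *Cdh1/Cdh3* was 1.66-fold higher (1.64 to 1.67) at 0ss, 2.71-fold (2.68 to 2.74) at 5-6ss, 2.09-fold (2.07 to 2.11) at 8-9ss and 1.68-fold (1.66 to 1.70) at 11-12ss. *Pcdh19* was 2.70-fold higher (2.56 to 2.85) at 0ss, 1.62-fold (1.51 to 1.75) at 5-6ss, 1.98-fold (1.86 to 2.11) at 8-9ss and 2.95-fold (2.77 to 3.14) at 11-12ss. *Pcdh1* was 1.66-fold higher (1.61 to 1.71) at 0ss, 2.64-fold (2.56 to 2.73) at 5-6ss, 2.34-fold (2.27 to 2.41) at 8-9ss and 1.51-fold (1.46 to 1.57) at 11-12ss. The enrichment of *Cdh1/Cdh3* and *Pcdh1* was largest in OEPs, whereas that of *Pcdh19* was smallest there. By RPKM the excess of *Cdh1/Cdh3* at 11-12ss was 1.37-fold, that of *Pcdh1* 1.39-fold and that of *Pcdh19* at 5-6ss 1.49-fold, which ended these 3 calls.

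Against the whole embryo, *Cdh2* was 6.35-fold lower (6.20 to 6.52) at 0ss, 22.0-fold lower (20.1 to 24.1) at 5-6ss, 7.24-fold lower (6.94 to 7.56) at 8-9ss and 3.36-fold lower (3.25 to 3.47) at 11-12ss. *Cdh11* was 1.81-fold lower (1.77 to 1.86) at 0ss, 4.76-fold (4.47 to 5.06) at 5-6ss, 5.28-fold (5.01 to 5.57) at 8-9ss and 2.97-fold (2.85 to 3.11) at 11-12ss. Both came closer to the whole embryo at 11-12ss than at 5-6ss or 8-9ss. *Pcdh8* was 8.30-fold lower (7.85 to 8.77) at 0ss, 21.6-fold (18.1 to 26.0) at 5-6ss, 30.7-fold (25.9 to 36.8) at 8-9ss and 18.5-fold (16.1 to 21.5) at 11-12ss. *Cdh20* was 17.7-fold lower (15.1 to 20.9) at 0ss and between 20.4-fold and 99.0-fold lower at the later stages, on 6 to 40 counts. The paraxial mesoderm, neural tube, notochord, neural crest, endoderm and blood and vessel lists also had their highest sums in the whole embryo. The neural tube sum was 170 RPKM there and 139 at 0ss. The part of these lists in these differences was not tested.

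Other loci were called at 1 or 2 stages. At 0ss *Cdh8* exceeded the whole embryo 11.7-fold (8.37 to 16.9), on 1168 counts against 35. Its RPKM ratio was 6.94, and its call was lost when counts were thinned to the smallest library. *Cdh13* was 6.30-fold (5.66 to 7.03) and *Cdh7* 2.96-fold (2.66 to 3.31) higher. At 5-6ss *Pcdh17* was 4.47-fold higher (3.87 to 5.19). At 8-9ss and 11-12ss it was 4.16-fold (3.62 to 4.79) and 3.57-fold (3.09 to 4.13) higher but under the RPKM minimum. *Ctnnd2* was 1.82-fold lower (1.71 to 1.94) at 5-6ss and 1.66-fold (1.58 to 1.75) at 8-9ss. *Ctnna1*, *Ctnnb1* and *Ctnnd1* ranged from 0.921-fold to 1.36-fold over the 4 comparisons. The largest of these values was that of *Ctnnd1* at 0ss (1.33 to 1.38).

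In number, 6 of 19 expressed loci were higher and 4 lower at 0ss (15.7% and 12.9% of all expressed loci), 4 of 17 and 5 of 17 at 5-6ss (13.9% and 10.2%), 3 of 16 and 5 of 16 at 8-9ss (15.0% and 13.1%), and 3 of 16 and 4 of 16 at 11-12ss (14.7% and 12.8%). The 3 higher loci at 8-9ss and at 11-12ss were near the share of all loci, and by RPKM, total counts or the interval the count at 11-12ss was 2. All these counts are small. The median log2 fold change was 0.24 at 0ss, 0.00 at 5-6ss, 0.01 at 8-9ss and -0.11 at 11-12ss, against 0.06, 0.03, 0.02 and -0.01 for all expressed loci. At 0ss the long class of all loci had a median of 0.23, with 23.1% higher and 6.47% lower. Relative to its length class *Pcdh1* was 1.42-fold higher at 0ss and no longer called, so that 4 of the 5 higher loci with a length class were still past 1.5-fold.

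**Figure D4:**
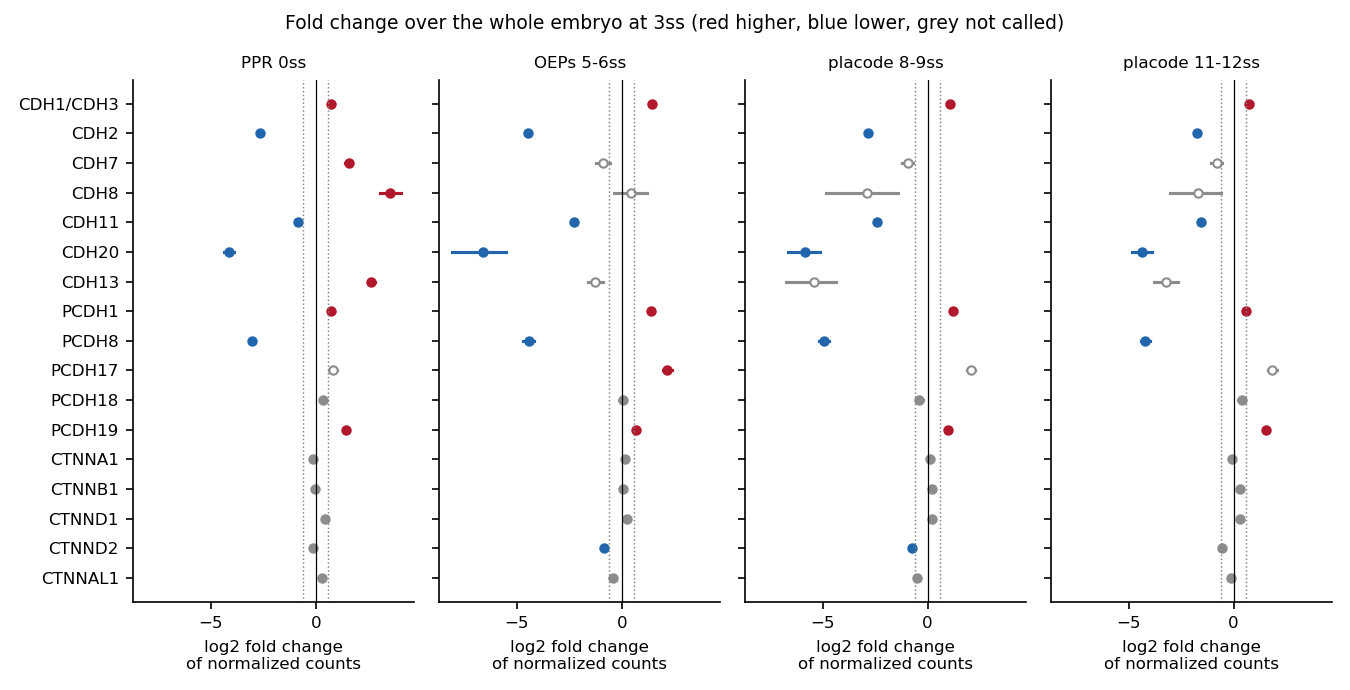
Log2 fold change over the whole embryo at 3ss for the 17 named loci at each otic stage, with 95% counting intervals as lines. Red marks called higher, blue called lower and grey not called, open circles mark loci under the expression levels in both libraries, and dotted lines mark 1.5-fold. *Cdh1/Cdh3*, *Pcdh1* and *Pcdh19* lie to the right and *Cdh2*, *Cdh11*, *Cdh20* and *Pcdh8* to the left in each panel.

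Several members are neighbours in the genome, by the gene order of RefSeq assembly GRCg7b, in which 40 of the 43 loci were matched. On chromosome 11, *Cdh5*, *Cdh11* and *Cdh8* follow each other without another protein-coding gene between them, and *Cdh3* lies next to *Cdh1* on the same chromosome. *Cdh11* and *Cdh8* both fell at 5-6ss against 0ss, while *Cdh5* had 50 counts at 5-6ss against 45 at 0ss, the deepest library. At 11-12ss *Cdh11* and *Cdh5* were higher than at 8-9ss, and *Cdh8* had 8 counts against 4. *Pcdh18* also follows another protocadherin directly, on chromosome 4. The files use another assembly, galGal4, and no coordinates are given.

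Genes that work with cadherins were read from 4 lists. Of the adherens junction partners and p120 family 14 of 21 symbols were matched. At 5-6ss against 0ss 1 of 13 expressed genes was higher and 6 were lower, with a median log2 fold change of -0.58. Over all expressed loci 18.0% were higher and 18.9% lower in this comparison (29.2% lower in the long class), and these shares apply to the other lists as well. *Jup* (plakoglobin, a β-catenin relative of desmosomes) was 1.73-fold higher (1.70 to 1.77). *Arvcf*, a p120 relative, fell 3.53-fold (3.35 to 3.71) and *Magi1*, a junctional scaffold, 2.09-fold (1.99 to 2.19). *Pkp2*, a desmosomal plaque protein, stood at 0.458 of its level at 0ss (0.420 to 0.499). In both later steps 0 of 12 were called. Of all expressed loci 3.89% were higher and 4.99% lower at 8-9ss against 5-6ss, and 6.54% and 3.63% at 11-12ss against 8-9ss. Against the whole embryo 6 of 13 were higher and 0 lower at 0ss, 3 of 12 higher and 2 lower at 5-6ss, 1 of 12 higher and 3 lower at 8-9ss, and 0 of 13 higher and 2 lower at 11-12ss. Over all expressed loci between 13.9% and 15.7% were higher and between 10.2% and 13.1% lower in these 4 comparisons.

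Of the cadherin superfamily genes with other symbols 14 of 16 were matched. At 5-6ss against 0ss 3 of 9 expressed genes were higher and 2 lower (18.0% and 18.9% of all loci), so that the lower share was near the background. *Dsg2*, a desmosomal cadherin, was 2.12-fold higher (1.99 to 2.25), and *Fat1*, a giant atypical cadherin, fell 2.37-fold (2.28 to 2.45). At 8-9ss against 5-6ss 2 of 8 were higher and 2 lower (3.89% and 4.99% of all loci), with *Ret*, a receptor kinase that carries cadherin repeats, 3.01-fold higher (2.71 to 3.36), and *Celsr1*, a planar polarity cadherin, 1.80-fold lower (1.68 to 1.92). At 11-12ss against 8-9ss *Dchs1*, a binding partner of Fat4, was 1.80-fold higher (1.70 to 1.90), the 1 call of 8 (6.54% of all loci were higher), and the other 7 were within 1.5-fold. Against the whole embryo 2 of 8 were higher and 0 lower at 0ss and at 5-6ss, 3 higher and 2 lower at 8-9ss, and 2 higher and 2 lower at 11-12ss. Over these 4 comparisons between 13.9% and 15.7% of all loci were higher and between 10.2% and 13.1% lower. *Ret* was 5.69-fold higher (5.09 to 6.36) at 11-12ss and *Dsg2* 2.37-fold (2.24 to 2.51).

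Of the repressors of cadherin genes and EMT factors 6 of 7 were matched, of which *Snai2* and *Twist1* also stand in the neural crest list. At 5-6ss against 0ss *Snai2*, a repressor of E-cadherin in several tissues, was 2.44-fold higher (2.25 to 2.64) and *Sox9* 1.95-fold (1.79 to 2.13), while *Zeb2* fell 6.64-fold (5.15 to 8.71). By counts, *Snai2* and the merged *Cdh1/Cdh3* locus were thus both higher in this step. By RPKM *Cdh1/Cdh3* was 1.38-fold higher and not called, and E-cadherin cannot be read apart from P-cadherin there. At 8-9ss *Snai2* was 1.58-fold lower (1.44 to 1.73) than at 5-6ss, the 1 call of 2 expressed genes (4.99% of all loci were lower). At 11-12ss against 8-9ss 0 of 3 were called (6.54% of all loci were higher and 3.63% lower). Both counts are small. Against the whole embryo 0 were higher at any stage, and 5 of 5 expressed genes were lower at 0ss and 3 of 4 at each later stage, against 12.9% of all loci at 0ss and between 10.2% and 13.1% later. *Zeb2* was 25.4-fold lower (19.7 to 33.3) at 5-6ss, on 61 counts against 2830 in the whole embryo.

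Of the genes for β-catenin turnover and cadherin cleavage 12 of 13 were matched, at 13 loci. At 5-6ss against 0ss 0 of 11 expressed loci were higher and 4 lower, against 18.0% and 18.9% of all loci and 29.2% lower in the long class. *Apc2* fell 4.85-fold (4.38 to 5.39) and *Apc* 2.68-fold (2.52 to 2.86), both of them scaffolds of the β-catenin destruction complex. At 8-9ss against 5-6ss 1 of 11 was higher and 1 lower, against 3.89% and 4.99% of all loci. *Capn2*, a calpain protease, was 1.97-fold higher (1.69 to 2.31) and *Axin2*, a Wnt target and scaffold of the same complex, 1.77-fold lower (1.66 to 1.88). At 11-12ss against 8-9ss 0 of 11 were called, where 6.54% of all loci were higher and 3.63% lower. Against the whole embryo 3 of 11 were higher and 1 lower at 0ss, 0 of 11 higher and 1 lower at 5-6ss, 1 of 12 higher and 3 lower at 8-9ss, and 1 of 12 higher and 2 lower at 11-12ss. Of all loci between 13.9% and 15.7% were higher and between 10.2% and 13.1% lower. *Ctnnb1* itself stayed within 1.22-fold (1.21 to 1.24) of the whole embryo at all 4 stages.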

How the data were processed

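The authors dissected tissue of 5 conditions and made 1 TruSeq library of each. They sequenced shorter single reads on 1 Illumina instrument or longer paired reads on another. Which library had which is not given in the sources used here. They aligned the reads with TopHat2 to galGal4 and merged Cufflinks assemblies into loci. The counts deposited by the authors are reads per locus from easyRNAseq, without normalization. The RPKM values deposited by the authors were made with Cuffdiff and are relative to transcript length and sequencing depth. The files held counts of 18365 loci and RPKM of 18581. Total counts lay between 26858887 and 136916870.

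Size factors were computed for each pair of libraries as the median ratio to the geometric mean, as the authors' tool does, and divided out of the counts. A call needed a fold change above 1.5 and, in the higher library, more than 4 RPKM and 300 normalized counts. A locus was expressed when it passed both levels in either library. Each interval is the Clopper-Pearson 95% interval of both counts after scaling. It covers counting error only, and PCR duplicates were not told apart. A count of 0 was raised to 3 for a fold change. The calls were tested on data simulated for each of the 7 comparisons, with 200 loci changed 4-fold and counting error alone: all 200 were recovered in each, 0 unchanged loci were called, and the intervals covered the true value at 94.9% to 95.5% of loci. The changed loci were drawn only from loci with high counts and a high RPKM in both libraries. Full recovery and the lack of false calls thus followed largely from this setting. They say nothing about loci of few reads, such as *Cdh8*, or about variation between libraries. Coverage near 95% also followed from the setting, since the simulated error was the counting error for which the intervals are built. It was taken only over loci above a minimum of simulated reads and says nothing about variation between libraries. Changes near the thresholds were not simulated.

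The 17 loci described in full are those called in at least 1 comparison plus 5 chosen by symbol. Some further members, such as *Cdh5*, *Ctnna2*, *Ctnnbl1* and *Ctnnbip1*, are named without a call. Of each gene list, only some of the called genes are named, and these are not always those with the largest fold change. The members and lists were chosen with earlier results of these data known. The 9 alternatives were 3 other scalings (TMM of edgeR 4.0.16, total counts, and factors shared by the 5 libraries), the deposited RPKM, calls without expression levels, calls past 2-fold, calls whose interval cleared 1.5-fold, thinning to the smallest library and, added after seeing the data, fold changes relative to loci of the same length class (at least 50 counts in the whole embryo; other loci kept their fold change). Scripts ran in R 4.3.3 and in Python 3.11.15 with scipy 1.17.1, pandas 2.3.3, numpy 2.4.6 and matplotlib 3.10.9. Of the loci the symbols cover, 1 is not reported here. No sequence is printed.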

Additional observations from a re-analysis of the deposited data

Results flagged for a closer look

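A protocadherin γ locus outside the symbol rule carried a signal that was above the whole embryo at 11-12ss. The locus, whose symbol *Pcdhgc3* is joined to other names in the files, had an RPKM of 23.9 at 0ss, 39.0 at 5-6ss, 48.3 at 8-9ss and 66.4 at 11-12ss, against 32.3 in the whole embryo. By counts it was 2.25-fold higher (2.13 to 2.38) at 11-12ss than in the whole embryo, whereas at 0ss it was called lower, at 0.640 of the whole embryo (0.606 to 0.675), and at 5-6ss (1.14-fold) and 8-9ss (1.42-fold) it was not called. Between stages it was called higher at 5-6ss against 0ss (1.78-fold) and at 11-12ss against 8-9ss (1.59-fold). Its level at 11-12ss was above the 37.0 RPKM of *Pcdh19*, the highest protocadherin of the described set with a reliable RPKM at that stage. Reads of clustered protocadherins that share exons cannot be told apart at this locus.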

How the results depend on the processing

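With 1 library per condition, no difference was separated from variation between libraries, and low loci were limited by depth. No paired analysis was possible because each group had 1 library and no replicate number was shared. Over 9 alternatives, 106 of 126 counts of called loci were within 1.5 times the reported one, and 0 of the 355 recomputed fold changes of called loci changed direction. Called loci lie past 1.5-fold, and the alternatives moved the median log2 fold change of all expressed loci by between -0.09 and 0.09. A change of direction was therefore unlikely from the start, and its absence says little about how firm the calls are. Of 471 recomputed fold changes of named loci in comparisons without a call, 6 crossed 1. The other 20 counts were as follows. Without the expression threshold, 10 loci were higher and 18 lower at 5-6ss against 0ss, 7 and 9 at 8-9ss against 5-6ss, and 12 and 5 at 11-12ss against 8-9ss. Against the whole embryo these numbers were 12 and 12 at 0ss, 9 and 15 at 5-6ss, 9 and 16 at 8-9ss, and 12 and 14 at 11-12ss, with loci of few reads included. No share of all loci is given for this setting, so these counts have no background beside them. *Cdhr1*, among the 10 higher at 5-6ss, had 0 counts there against 8 at 0ss. It was higher only because a count of 0 was raised to 3. With a fold change over 2, 1 locus was higher at 5-6ss against 0ss, 1 higher and 0 lower at 11-12ss against 8-9ss, and 1 higher at 11-12ss against the whole embryo. By deposited RPKM, 1 locus (*Pcdh17*) was higher at 5-6ss against 0ss. With an interval wholly past 1.5-fold, 0 were lower at 11-12ss against 8-9ss, since *Pcdh1* was lost. *Pcdh1* was also lost at 11-12ss against the whole embryo by total counts, RPKM and the interval, and *Ctnna2* was gained there by all-library size factors, RPKM and the length alternative. The cause of these changes was not tested.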
